A study of Oryctolagus cuniculus with 9 samples.

Results

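NF-kB target genes, cytokines and interferon response genes were followed in cultured rabbit parathyroid cells exposed to hypoxia and reoxygenation, with or without gallic acid. The list held 41 symbols, 27 inflammatory and 14 interferon-related, and a gene was taken from the expression table where a row carried exactly its symbol. Of these, 34 were found among 19511 loci, 22 inflammatory and 12 interferon-related, and the 2 classes are reported apart. The series sequenced RNA of primary cells (Oryctolagus cuniculus) in 9 libraries, 3 per group. Gallic acid, a phenolic compound found in many plants, was given to GA+H/R cells at 1200 µM for 24 h ahead of 6 h of hypoxia and 6 h of reoxygenation. H/R cells went through the same 6 h of hypoxia and 6 h of reoxygenation with no gallic acid. Control cells had neither and are dated day 0. The genotype field of the labels reads IRI with GA, IRI and WT for these groups, where IRI is the ischemia-reperfusion injury named in the series title, so it records the exposure and names no allele. Whether H/R cells were held for an equal 24 h without gallic acid is not given in the sources used here, so treatment and time in culture cannot be told apart.

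NF-kB is a family of dimeric transcription factors that inhibitor proteins hold in the cytoplasm until an inflammatory or stress signal releases them. The freed dimers switch on cytokines, chemokines and adhesion molecules, and also their own inhibitors, such as IkB-alpha (NFKBIA) and A20 (TNFAIP3), which then damp the signal. The interferon arm runs through RNA and DNA sensors, the IRF and STAT transcription factors, and ends in antiviral effectors such as MX1 and the IFIT proteins.

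The values were FPKM, fragments counted per unit of transcript length and of library size, with no read counts, so read depth is unknown. Summed FPKM over all loci was 467499 to 516231 in GA+H/R libraries, 730117 to 752065 in H/R libraries and 1648010 to 1696490 in control libraries. The median locus moved with it, by -0.50 on the log2 scale in GA+H/R minus H/R, -1.25 in H/R minus control and -1.77 in GA+H/R minus control. Values are therefore given as rescaled FPKM, each library being divided by its median ratio to the average of all libraries, taken over the 8448 loci with 1 FPKM or more in all 9 libraries. A rise or fall below is relative to the median locus. The change on the deposited scale is given beside each rise, and each fall named below was negative on that scale too. On the rescaled values the median change of all tested loci was 0.00, 0.00 and -0.05 on the log2 scale for the same 3 comparisons. The parathyroid label was not borne out by the markers PTH and CHGA, though other markers of the same list were expressed. PTH, the hormone itself, lay between 0 and 0.104 rescaled FPKM in every library, and CHGA, a secretory granule protein, between 0 and 0.564. Only 3 of 15 parathyroid markers reached the expression filter. VDR was among them, averaging 2.10 in GA+H/R, 1.36 in H/R and 1.31 in control. The 12 in the table summed to 114 to 124 in GA+H/R, 86.4 to 93.9 in H/R and 64.0 to 111 in control. PTH, CHGA and VDR made up little of these sums. In contrast, 9 of 12 fibroblast markers reached it, with summed levels of 33670 to 34095 in GA+H/R, 45240 to 45426 in H/R and 68169 to 109242 in control. Endothelial markers summed to 12.2 to 16.5, 13.3 to 17.9 and 16.8 to 20.2 in the same groups, and no lymphocyte or epithelial marker reached the filter. Control replicate 1 stood apart from the other controls, with a correlation of 0.985 and 0.983 to control 2 and 3, which correlated with each other at 0.997. Each pair of GA+H/R libraries correlated at 0.985 and each pair of H/R libraries at 0.992. Of the 26 genes tested, control 1 lay above both other controls for 10, below both for 13 and between them for 3. This split was not counted over all loci.

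Transcript length class moved with the groups too. The 23 long housekeeping transcripts in the table summed to 4776 to 4859 rescaled FPKM in GA+H/R, 6803 to 6919 in H/R and 10007 to 12753 in control. The 21 short ones summed to 2436 to 2502 in GA+H/R, 1509 to 1580.2 in H/R and 424 to 479 in control. In GA+H/R minus control, 23 of 23 tested long transcripts were called lower, and 17 of 18 short ones were called higher. The part of transcript length in the changes below was not tested.

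**Figure D1:**
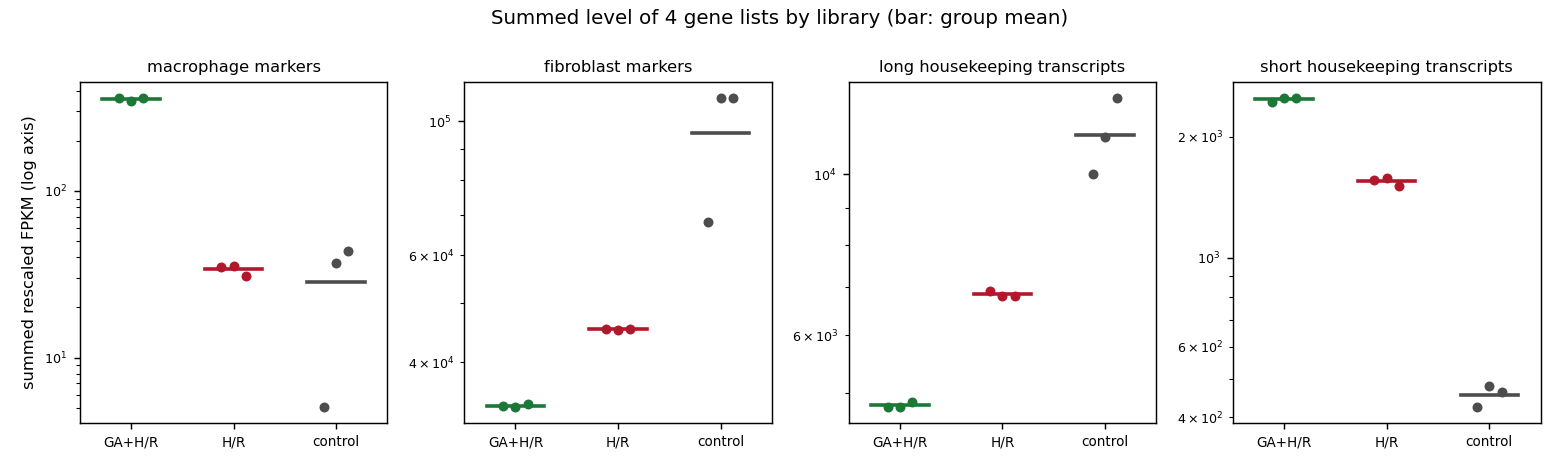
Summed rescaled FPKM (log axis) of macrophage markers, fibroblast markers and long and short housekeeping transcripts in each library, with GA+H/R at left, H/R in the middle and control at right, and a bar at each group mean. Macrophage markers stand at 346 to 362 in GA+H/R, long housekeeping transcripts are lowest in GA+H/R, and short ones are lowest in control.

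Of the 22 inflammatory genes found, 17 had at least 1 rescaled FPKM in at least 3 libraries and were tested. The other 5, TNF, CCL5, CCL20, VCAM1 and CSF2, ranged from 0 to 0.900 in all 9 libraries. Among them are the cytokine at the head of the pathway (TNF), a pair of lymphocyte-attracting chemokines (CCL5 and CCL20), the endothelial adhesion molecule VCAM1 and the growth factor GM-CSF (CSF2). CXCL1, CXCL2, CXCL3 and RELA, the main activating NF-kB subunit, had no row of their own, so no value is given for them. Of the 12 interferon genes found, 9 were tested, and ISG15, IFIT2 and OASL ranged from 0 to 1.56. ISG15 is a ubiquitin-like protein, and IFIT2 and OASL are antiviral effectors. IFIT2 was the least low of them, at 0.714, 0.342 and 0.564 in GA+H/R, 0.859, 0.847 and 0.716 in H/R and 0.792, 1.37 and 1.56 in control. MX2 had no row. In the authors' deposited table, a single test across the 3 groups marked 24 of the 34 genes found (70.6%) as significant, against 10917 of all 19511 loci (56.0%).

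With gallic acid given before hypoxia and reoxygenation, inflammatory genes went both ways. In GA+H/R relative to H/R, the neutrophil chemokine CXCL8 and the monocyte chemokine CCL2 rose. The cytokine LIF, the NF-kB inhibitor genes NFKBIA and TNFAIP3, the IkB family gene NFKBIZ and the transcription factor gene STAT3 fell. The other 10 of 17 genes were not called. Counts rest on limma across all loci, called at a Benjamini-Hochberg adjusted p under 0.05. The 7 called of 17 set against 33.9% of all 10956 tested loci, 2 higher against 18.7% and 5 lower against 15.2%. The median of the 17 was -0.21 in log2 units. Deposited values gave 1 higher, CCL2, and 12 lower, where 66% of all loci were called, 1.69% higher and 64.3% lower. Leaving out GA+H/R 1, 2 or 3 left 3, 2 or 4 calls, and leaving out H/R 1, 2 or 3 left 3, 4 or 4.

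After hypoxia and reoxygenation without gallic acid, H/R relative to control, 7 of the 17 inflammatory genes rose and 6 fell relative to the median locus. IL1A, CXCL8, LIF, CSF3, NFKBIA, NFKB2 and RELB rose, while CXCL12, PTGS2, CSF1, TNFAIP3, NFKB1 and STAT3 fell. The 13 called of 17 set against 57.6% of all tested loci, 29.2% higher and 28.4% lower, and the median of the 17 was 0.53. Every one of the 7 rises had a negative change on the deposited scale, where 0 of the 17 were higher and 13 were lower against 90.2% of all loci called, 4.18% higher and 86% lower. With library totals made equal, 5 were higher and 7 lower, and all loci split into 2088 higher and 4447 lower in place of 3203 and 3112. H/R and control libraries did not overlap for 13 of the 17 genes, but this was not counted over all loci, so it marks no trait of the set.

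GA+H/R relative to control gave 6 higher and 7 lower of the 17. IL1A, IL1B, CXCL8, CCL2, NFKB2 and RELB rose, and CXCL12, PTGS2, CSF1, TNFAIP3, NFKBIZ, NFKB1 and STAT3 fell. This 13 of 17 set against 69.2% of all tested loci, 33.7% higher and 35.5% lower, with a median of -0.23 against -0.05 over all loci. On the deposited scale 1 was higher, CCL2, and 14 were lower, against 94.2% of all loci called, 4.1% higher and 90.1% lower. GA+H/R and H/R were set against the same control libraries, and H/R enters both of the preceding comparisons, so the 3 sets of values are not independent.

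**Figure D2:**
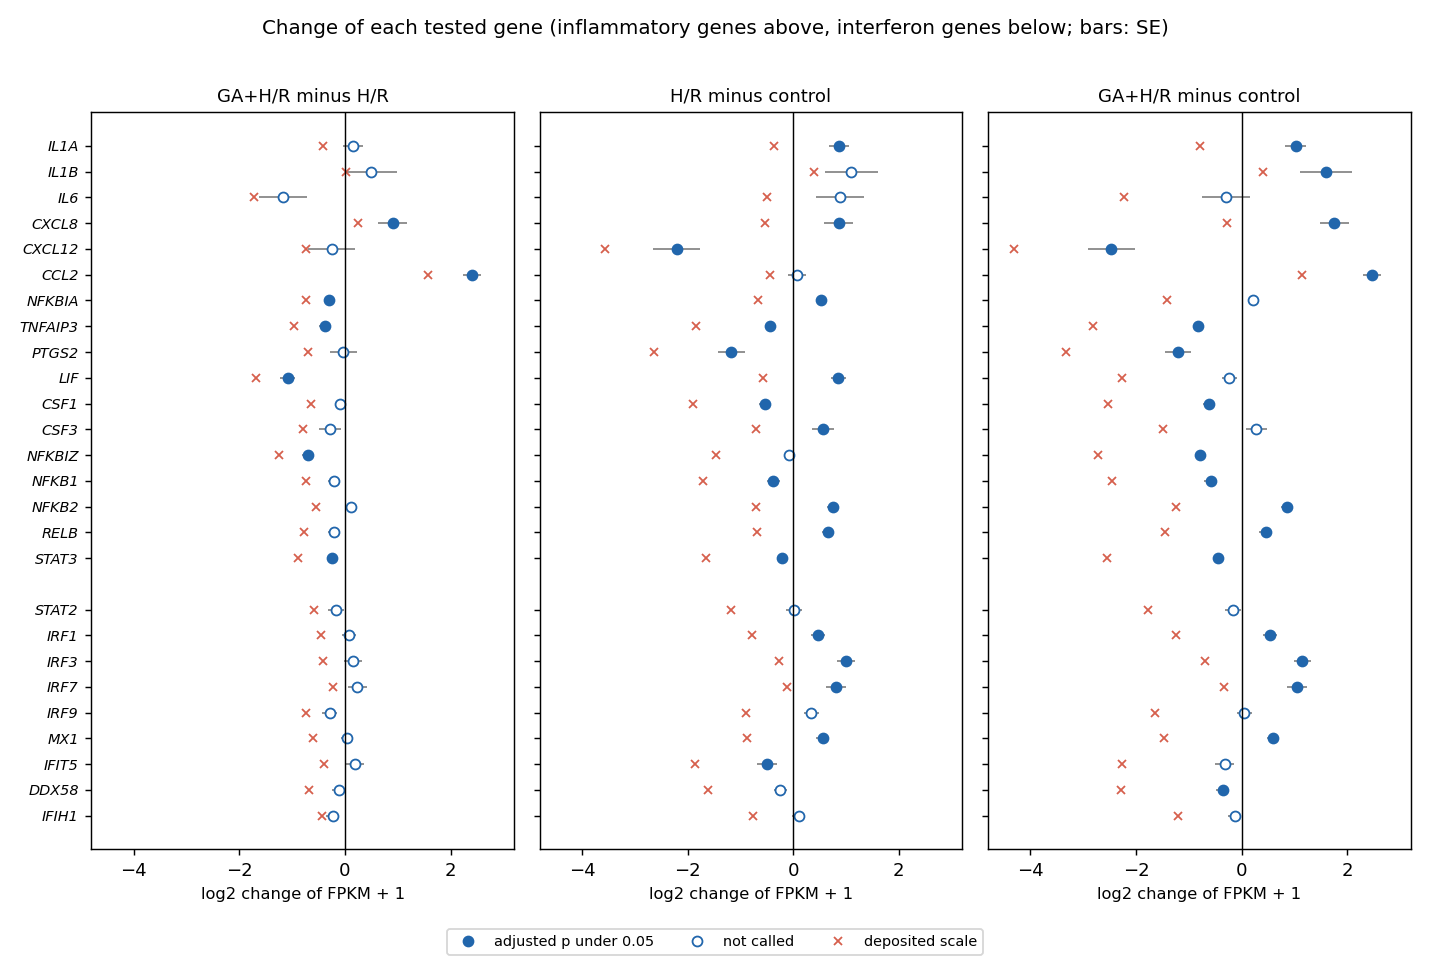
Log2 change of each tested gene in GA+H/R minus H/R, H/R minus control and GA+H/R minus control, with SE bars, inflammatory genes above and interferon genes below. Filled points were called at an adjusted p under 0.05, open points were not, and crosses give the deposited scale, on which CCL2 at 1.57 is the only inflammatory gene called higher in GA+H/R minus H/R.

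Among the NF-kB subunits, the noncanonical NFKB2 and RELB rose in H/R relative to control, with negative changes on the deposited scale, and NFKB1 fell. NFKB2 encodes p100, the precursor of p52. It was at 177, 194 and 180.4 rescaled FPKM in GA+H/R libraries, 166, 170.4 and 174 in H/R libraries and 125, 90.3 and 90.4 in control libraries. Every GA+H/R and H/R library lay above every control. NFKB2 rose by 0.75 ± 0.12 (log2 ± SE, limma adjusted p = 5.96e-04) in H/R relative to control and by 0.86 ± 0.12 (adjusted p = 1.63e-04) in GA+H/R relative to control, against -0.70 and -1.25 on the deposited scale. GA+H/R minus H/R was 0.11 ± 0.12 and was not called. RELB, the partner subunit of p52, was at 12.8, 10.3 and 12.1 in GA+H/R, 14.5, 13.6 and 12.9 in H/R and 9.32, 7.36 and 8.23 in control, again with every library of the exposed groups above the controls. RELB rose by 0.66 ± 0.12 (adjusted p = 0.00112) in H/R and by 0.46 ± 0.12 (adjusted p = 0.00638) in GA+H/R relative to control, the second call being lost with equal totals, at 0.11, or quantile normalization, at 0.28. Deposited values gave -0.68 and -1.45.

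NFKB1 encodes p105, the precursor of p50 in the canonical dimer. It was at 8.25, 6.54 and 8.11 in GA+H/R, 9.06, 8.88 and 8.89 in H/R and 10.2, 13.1 and 12.5 in control, with all controls above all other libraries. NFKB1 fell by 0.38 ± 0.12 (adjusted p = 0.0246) in H/R and by 0.59 ± 0.12 (adjusted p = 0.00202) in GA+H/R relative to control, and the H/R call was lost without control 2, control 3 or any single H/R library. STAT3, the transcription factor that carries IL-6 and LIF signals, was at 92.1, 85.7 and 99.1 in GA+H/R, 108, 111 and 109 in H/R and 139, 119 and 123 in control. No group overlapped another for STAT3. It fell by 0.24 ± 0.08 (adjusted p = 0.0382) in GA+H/R relative to H/R, by 0.21 ± 0.08 (adjusted p = 0.0433) in H/R relative to control and by 0.45 ± 0.08 (adjusted p = 6.58e-04) in GA+H/R relative to control. Of these, the first call ended under 8 of 19 alternatives and the second under 10, among them leaving out control 1, which moved the H/R change to -0.13.

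Of the IkB family and A20 genes in the set, NFKBIA rose, TNFAIP3 fell and NFKBIZ was not called in H/R relative to control. All of these fell in GA+H/R relative to H/R. NFKBIA encodes IkB-alpha, which retains NF-kB dimers in the cytoplasm. It was at 3.995, 4.29 and 4.31 in GA+H/R, 5.12, 5.82 and 5.39 in H/R and 3.25, 3.63 and 3.53 in control, so H/R libraries were highest and the 3 groups did not overlap. NFKBIA fell by 0.31 ± 0.09 (adjusted p = 0.0300) in GA+H/R relative to H/R and rose by 0.53 ± 0.09 (adjusted p = 0.00112) in H/R relative to control, where the deposited change was -0.67. GA+H/R minus control was 0.22 ± 0.09 (adjusted p = 0.0605). The fall against H/R lost its call when any single GA+H/R or H/R library was left out.

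NFKBIZ encodes IkB-zeta, a nuclear IkB protein that works with p50 on a subset of cytokine genes. It was at 11.03, 10.4 and 10.2 in GA+H/R, 16.3, 19.1 and 18.05 in H/R and 18.9, 20.6 and 17.2 in control, so GA+H/R lay apart below H/R and control, which overlapped. NFKBIZ fell by 0.71 ± 0.10 (adjusted p = 8.71e-04) relative to H/R and by 0.79 ± 0.10 (adjusted p = 8.79e-05) relative to control, with -1.25 and -2.72 on the deposited scale. H/R minus control was -0.08 ± 0.10 and was not called. TNFAIP3 encodes A20, a ubiquitin-editing enzyme that shuts off signalling upstream of the IkB kinase. It was at 18.8, 15.3 and 19.1 in GA+H/R, 25.002, 22.6 and 22.4 in H/R and 31.997, 33.6 and 29.97 in control, lowest in GA+H/R and highest in control, without overlap. TNFAIP3 fell by 0.38 ± 0.10 (adjusted p = 0.0211) in GA+H/R relative to H/R, by 0.43 ± 0.10 (adjusted p = 0.00638) in H/R relative to control and by 0.81 ± 0.10 (adjusted p = 1.04e-04) in GA+H/R relative to control. The call against H/R was lost without GA+H/R 2 or without H/R 1.

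Among the 5 inflammatory genes called lower in GA+H/R relative to H/R, LIF had the largest change. LIF encodes a cytokine of the IL-6 family that signals through LIFR and IL6ST. It was at 19.6, 27.03 and 27.6 rescaled FPKM in GA+H/R, 58.4, 53.1 and 47.8 in H/R and 28.1, 32.3 and 26.4 in control. All H/R libraries lay above the others, and GA+H/R and control overlapped. LIF rose by 0.85 ± 0.14 (adjusted p = 9.53e-04) in H/R relative to control, with -0.57 on the deposited scale, and fell by 1.08 ± 0.14 (adjusted p = 7.31e-04) in GA+H/R relative to H/R, with -1.68. GA+H/R minus control was -0.23 ± 0.14 (adjusted p = 0.183). Both calls use the same H/R libraries.

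IL6, the founding cytokine of that family, was more variable. It was at 7.94, 17.9 and 12.9 in GA+H/R, 25.7, 30.5 and 31.4 in H/R and 6.56, 28.7 and 18.2 in control. H/R lay above GA+H/R in every library, while the controls spanned the GA+H/R range and overlapped H/R. GA+H/R minus H/R was -1.18 ± 0.46 (adjusted p = 0.0761) and H/R minus control was 0.89 ± 0.46 (adjusted p = 0.126), neither called. The GA+H/R minus H/R change was called at -1.17 without control 1, the control library with the lowest IL6, at -1.18 without control 2 or with the replicate number as a block, at -1.17 with those groups fitted alone, and at -1.72 on the deposited scale. H/R minus control was 0.35 without control 1, and it was called at 1.32 without control 2 and at 0.89 with the block. GA+H/R minus control was called at -0.83 without control 1, and was 0.14 without control 2.

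Of the interleukin-1 ligands, IL1A rose in both exposed groups relative to control, with negative changes on the deposited scale, and IL1B rose in GA+H/R and was not called in H/R. IL1A encodes interleukin-1 alpha, a cytokine that dying cells can release as an alarm signal. It was at 9.16, 8.54 and 10.3 in GA+H/R, 8.24, 8.15 and 8.503 in H/R and 2.87, 5.96 and 3.85 in control, each exposed library lying above each control. IL1A rose by 0.87 ± 0.19 (adjusted p = 0.00393) in H/R and by 1.02 ± 0.19 (adjusted p = 0.00114) in GA+H/R relative to control, with -0.37 and -0.78 on the deposited scale. GA+H/R minus H/R was 0.15 ± 0.19. IL1B, the secreted interleukin-1 that needs inflammasome cleavage, was at 3.01, 2.13 and 8.96 in GA+H/R, 4.79, 1.85 and 1.69 in H/R and 0, 1.34 and 0.913 in control. The 3 GA+H/R libraries differed among themselves, and GA+H/R overlapped H/R. H/R minus control of IL1B was 1.10 ± 0.49 (adjusted p = 0.0850). IL1B rose by 1.60 ± 0.49 (adjusted p = 0.0173) in GA+H/R relative to control, with 0.40 on the deposited scale, and this call was lost without control 1, at 1.19, and without GA+H/R 3, at 1.14.

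The colony-stimulating factors split. CSF1, which sustains macrophages, was at 10.2, 8.89 and 9.72 in GA+H/R, 10.5, 10.01 and 10.2 in H/R and 17.2, 14.9 and 13.97 in control, where every library was above the rest. CSF1 fell by 0.54 ± 0.10 (adjusted p = 0.00166) in H/R and by 0.62 ± 0.10 (adjusted p = 4.67e-04) in GA+H/R relative to control. CSF3, or G-CSF, which drives neutrophil production, was at 5.26, 6.48 and 8.11 in GA+H/R, 8.68, 9.61 and 6.54 in H/R and 4.03, 6.87 and 4.99 in control, and each pair of groups overlapped. CSF3 rose by 0.57 ± 0.21 (adjusted p = 0.0416) in H/R relative to control, with -0.70 on the deposited scale, and that call ended under 8 of 19 alternatives, leaving out control 1, control 3, H/R 1, H/R 2 or GA+H/R 2 among them.

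**Figure D3:**
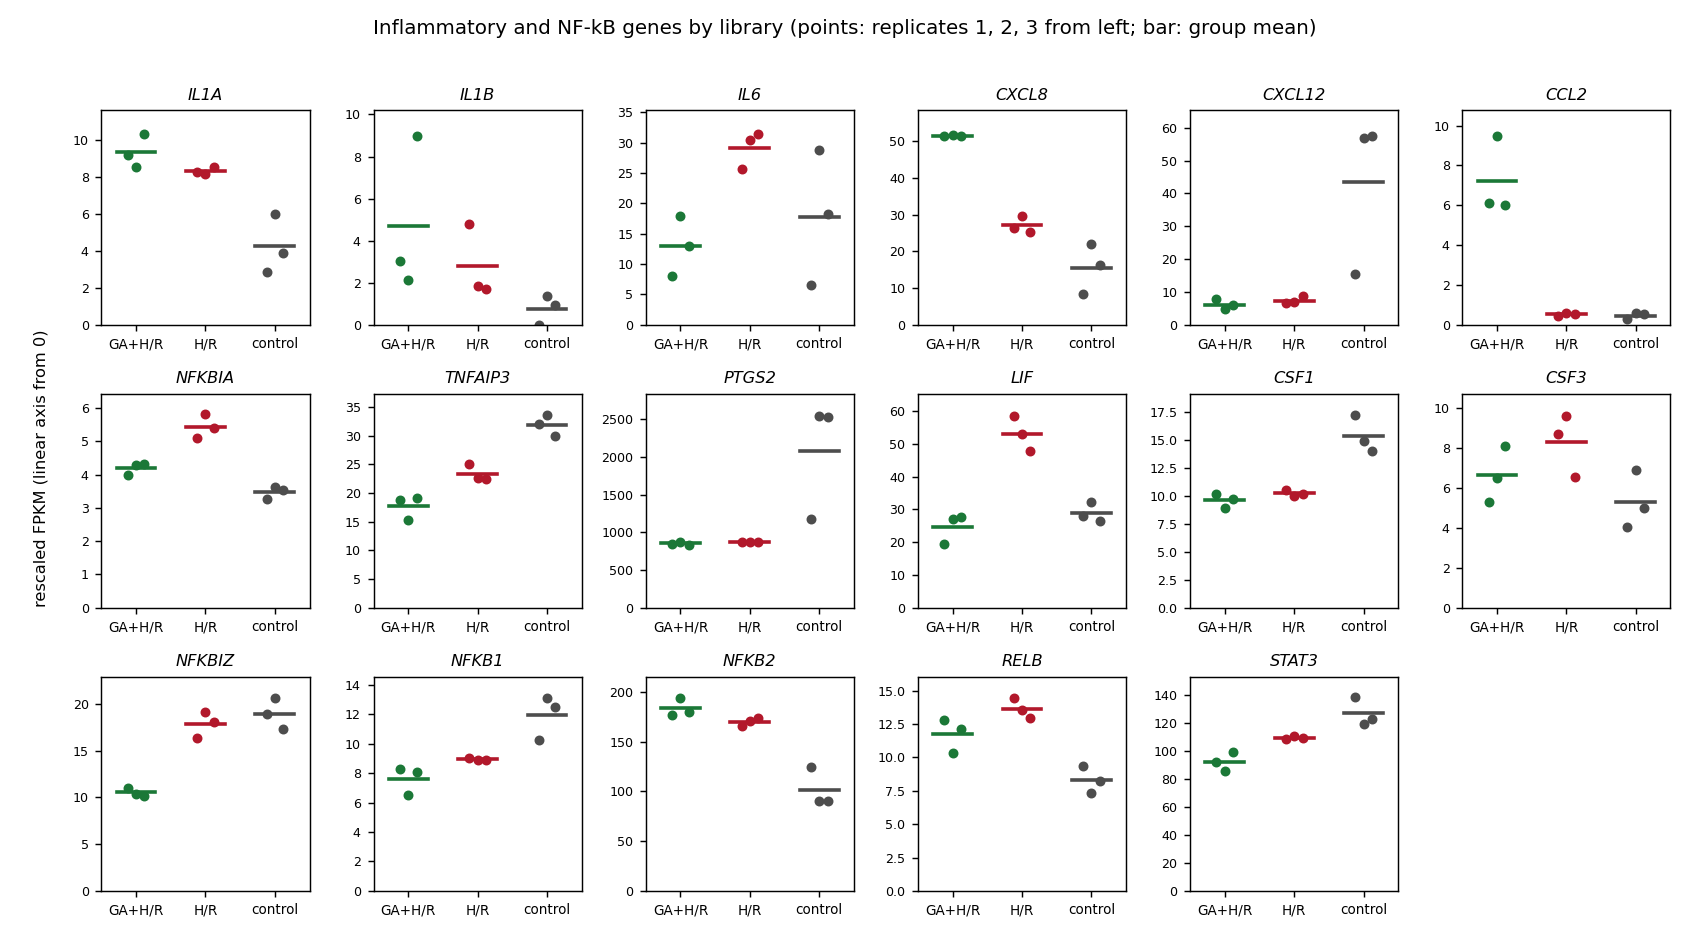
Rescaled FPKM (linear axis from 0) of the 17 tested inflammatory genes, with replicates 1, 2 and 3 from left in GA+H/R, H/R and control, and a bar at each group mean. CCL2 stands at 6.002 to 9.48 in GA+H/R against 0.428 to 0.582 in H/R, LIF is highest in H/R, and CXCL12 and PTGS2 are lower in control 1 than in the other controls.

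Among the chemokines, CCL2 and CXCL8 were highest in GA+H/R and CXCL12 was highest in control. CCL2 recruits monocytes. It was at 6.11, 9.48 and 6.002 rescaled FPKM in GA+H/R, 0.428, 0.582 and 0.526 in H/R and 0.270, 0.563 and 0.520 in control. Every GA+H/R library lay above all others, and H/R and control overlapped at values under 1. CCL2 rose by 2.41 ± 0.17 (adjusted p = 2.64e-05) relative to H/R and by 2.48 ± 0.17 (adjusted p = 2.09e-06) relative to control, with 1.57 and 1.14 on the deposited scale. It passed the filter through the GA+H/R libraries alone, so a difference was built into its being tested.

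Macrophage markers moved with CCL2. The 11 of 18 in the table summed to 346 to 362 rescaled FPKM in GA+H/R, 30.9 to 35.5 in H/R and 5.03, 36.9 and 43.5 in control. Of 7 tested, 6 were called higher in GA+H/R than in H/R, against 18.7% of all loci. A marker that passed the filter through GA+H/R alone had a difference built into its test. Such markers were not counted apart, so the count of 6 is description only. On the deposited scale 4 of 5 tested were higher, against 1.69% of all loci. The scavenger receptors MRC1 and CD163 averaged 214 ± 12.7 and 32.02 ± 1.51 in GA+H/R against 16.4 ± 0.519 and 4.17 ± 1.31 in H/R (SD, n = 3), while PTPRC, the pan-leukocyte antigen CD45, stayed at 0 to 0.262 in all libraries. CCL7, a close chemokine relative of CCL2, was at 6.09, 10.7 and 11.04 in GA+H/R, 0.974, 0.892 and 0.333 in H/R and 0.214, 1.19 and 1.62 in control, and rose by 2.55 ± 0.32 (adjusted p = 5.24e-04) relative to H/R, with 1.71 on the deposited scale. Of the CCL7 libraries with at least 1 rescaled FPKM, 3 were GA+H/R, 0 H/R and 2 control, so it passed the filter through GA+H/R and had to differ from H/R. In bulk RNA, a changed share of cells of a type and a changed amount of RNA per cell cannot be told apart, and the part of macrophage RNA in these values was not tested.

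CXCL8, interleukin-8, attracts neutrophils. It was at 51.3, 51.8 and 51.3 in GA+H/R, 26.4, 29.6 and 25.3 in H/R and 8.397, 21.98 and 16.2 in control, and the 3 groups did not overlap. CXCL8 rose by 0.90 ± 0.27 (adjusted p = 0.0299) in GA+H/R relative to H/R, by 0.86 ± 0.27 (adjusted p = 0.0223) in H/R relative to control and by 1.76 ± 0.27 (adjusted p = 3.30e-04) in GA+H/R relative to control, where the deposited scale gave 0.25, -0.53 and -0.28. The first call was lost without any single GA+H/R or H/R library, and the second without H/R 1 or H/R 2 and with equal totals or no filter. Without control 1 the H/R minus control change of CXCL8 was 0.51. The 3 of 9 neutrophil markers in the table (S100A8, S100A9 and ITGB2) summed to 377 to 404 in GA+H/R, 175 to 184 in H/R and 52.8 to 100.6 in control. Most of each sum was S100A8 and S100A9, and the part of neutrophil RNA in the CXCL8 values was not tested.

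CXCL12 is a homeostatic chemokine of stromal cells that retains leukocytes and progenitors. It was at 7.67, 4.68 and 5.82 in GA+H/R, 6.49, 6.8002 and 8.73 in H/R and 15.6, 56.9 and 57.7 in control. Controls lay above all exposed libraries, with control 1 far under the other controls. CXCL12 fell by 2.21 ± 0.44 (adjusted p = 0.00237) in H/R and by 2.46 ± 0.44 (adjusted p = 8.84e-04) in GA+H/R relative to control, and without control 1 these were -2.78 and -3.03. GA+H/R minus H/R was -0.25 ± 0.44. Summed fibroblast markers were also highest in control, as given above, but the list was not uniform. In H/R relative to control 1 of 9 tested was higher and 6 lower, against 29.2% and 28.4% of all loci. GA+H/R relative to control gave 2 higher and 6 lower, against 33.7% and 35.5%. VIM was lowest in control, averaging 17602 in GA+H/R, 14310 in H/R and 7756 in control. The part of fibroblast RNA in CXCL12 was not tested.

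PTGS2 encodes cyclooxygenase-2, the inducible enzyme of prostaglandin synthesis. It was at 847, 872 and 838 in GA+H/R, 869, 872 and 873 in H/R and 1172, 2538 and 2533 in control. The exposed groups overlapped and sat below all controls. PTGS2 fell by 1.17 ± 0.25 (adjusted p = 0.00379) in H/R and by 1.20 ± 0.25 (adjusted p = 0.00238) in GA+H/R relative to control, and without control 1 by 1.52 and 1.56. ICAM1, a leukocyte adhesion molecule, appeared only in a locus joined with ICAM4, so the 2 genes cannot be separated. That locus was at 7.17, 7.39 and 6.19 in GA+H/R, 11.9, 12.2 and 12.9 in H/R and 10.2, 12.8 and 12.5 in control, and it fell by 0.76 ± 0.11 (adjusted p = 0.00116) in GA+H/R relative to H/R. H/R minus control was 0.06 ± 0.11.

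The interferon genes gave a different count. In GA+H/R relative to H/R, 0 of 9 tested genes were called by limma, 0 had an unadjusted p under 0.05, and 0 were called by limma's moderated test without trend and robust settings. Their changes ran from -0.29 to 0.24 on the log2 scale with a median of 0.04, against 33.9% of all loci called and a median of 0.00. On the deposited scale 0 were higher and 7 lower of 10 tested, and without control 1 IRF9 was called lower. In H/R relative to control, IRF1, IRF3, IRF7 and MX1 rose and IFIT5 fell, which is 5 of 9 against 57.6% of all loci and so near the background. The median of the 9 was 0.35. Deposited values gave 0 higher and 8 lower of 10, equal totals 2 higher and 2 lower, and quantile normalization 3 higher and 2 lower. Without H/R 3 the count was 3. In GA+H/R relative to control, the same 4 genes rose and DDX58 fell, again 5 of 9 against 69.2% of all loci, with a median of 0.06, 0 higher and 9 lower on the deposited scale, 2 higher and 4 lower with equal totals, and 4 higher and 2 lower with quantile normalization.

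**Figure D4:**
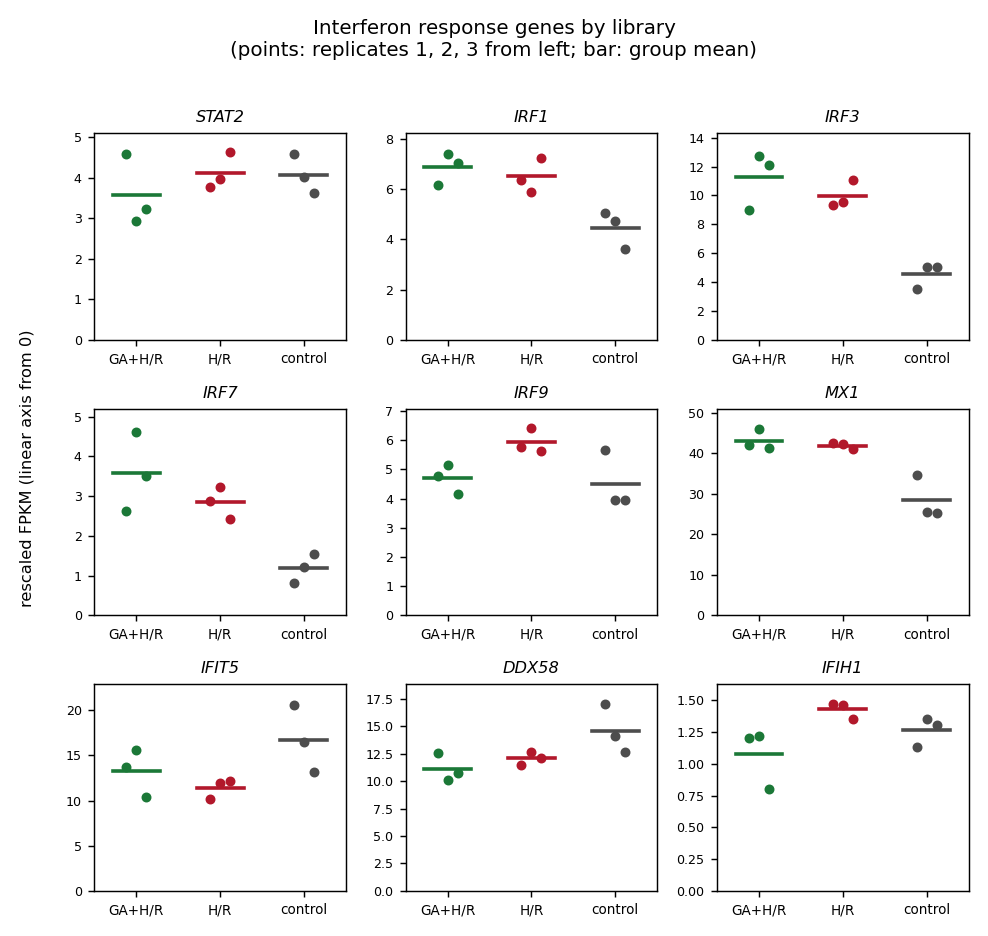
Rescaled FPKM (linear axis from 0) of the 9 tested interferon genes, with replicates 1, 2 and 3 from left in GA+H/R, H/R and control, and a bar at each group mean. IRF3 at 9.03 to 12.8 in GA+H/R and 9.33 to 11.1 in H/R lies above control at 3.52 to 5.05, while STAT2 overlaps between all groups.

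The regulatory factors of the interferon arm held most of the rises. IRF3, the factor that sensors activate to start interferon transcription, was at 9.03, 12.8 and 12.1 rescaled FPKM in GA+H/R, 9.33, 9.56 and 11.1 in H/R and 3.52, 5.04 and 5.05 in control. All exposed libraries exceeded all controls. IRF3 rose by 0.998 ± 0.16 (adjusted p = 7.64e-04) in H/R and by 1.15 ± 0.16 (adjusted p = 2.05e-04) in GA+H/R relative to control, with -0.27 and -0.69 on the deposited scale. IRF7, which amplifies type I interferon production, was at 2.63, 4.61 and 3.49 in GA+H/R, 2.88, 3.23 and 2.42 in H/R and 0.822, 1.21 and 1.55 in control, also without overlap between exposed and control libraries. It rose by 0.82 ± 0.19 (adjusted p = 0.00509) in H/R and by 1.05 ± 0.19 (adjusted p = 8.66e-04) in GA+H/R relative to control, with -0.12 and -0.34 on the deposited scale.

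IRF1, a factor that interferon-gamma and NF-kB both induce, was at 6.18, 7.42 and 7.05 in GA+H/R, 6.37, 5.901 and 7.26 in H/R and 5.05, 4.73 and 3.61 in control, again with controls lowest. IRF1 rose by 0.47 ± 0.13 (adjusted p = 0.0146) in H/R and by 0.54 ± 0.13 (adjusted p = 0.00569) in GA+H/R relative to control, with -0.78 and -1.23 on the deposited scale, and both calls were lost with equal totals, at 0.22 each. The H/R call was also lost with quantile normalization and without H/R 3. IRF9 and STAT2, which act together downstream of the type I interferon receptor, were not called. IRF9 was at 4.77, 5.15 and 4.16 in GA+H/R, 5.78, 6.42 and 5.64 in H/R and 5.66, 3.95 and 3.94 in control, so H/R lay above GA+H/R while control 1 reached into the H/R range. Without control 1, H/R minus control of IRF9 was called at 0.49, in place of 0.35 ± 0.14 with it. STAT2 was at 4.58, 2.94 and 3.22 in GA+H/R, 3.76, 3.96 and 4.62 in H/R and 4.59, 4.02 and 3.61 in control, with overlap between every pair of groups.

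The other interferon genes tested were RNA sensors and antiviral effectors. DDX58 encodes RIG-I, which detects viral RNA. It was at 12.6, 10.1 and 10.7 in GA+H/R, 11.5, 12.7 and 12.1 in H/R and 17.05, 14.1 and 12.6 in control, where control 3 fell within the exposed range. DDX58 fell by 0.36 ± 0.13 (adjusted p = 0.0305) in GA+H/R relative to control, a call lost without control 1, at -0.23, and also without control 2, GA+H/R 2 or GA+H/R 3. IFIH1, the related sensor MDA5, was at 1.21, 1.22 and 0.803 in GA+H/R, 1.47, 1.46 and 1.36 in H/R and 1.13, 1.35 and 1.31 in control and was not called. H/R libraries were highest for IFIH1, by a narrow margin over control.

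MX1, a dynamin-like antiviral GTPase, was at 42.04, 46.1 and 41.4 in GA+H/R, 42.5, 42.3 and 40.98 in H/R and 34.7, 25.5 and 25.3 in control. GA+H/R and H/R overlapped, and both lay above the controls. MX1 rose by 0.55 ± 0.12 (adjusted p = 0.00372) in H/R and by 0.60 ± 0.12 (adjusted p = 0.00179) in GA+H/R relative to control, with -0.87 and -1.46 on the deposited scale, and with equal totals both calls were lost, at 0.27 and 0.23. IFIT5, an RNA-binding antiviral protein, was at 13.7, 15.6 and 10.4 in GA+H/R, 10.2, 11.9 and 12.2 in H/R and 20.6, 16.5 and 13.2 in control. Controls lay above H/R and overlapped GA+H/R. IFIT5 fell by 0.50 ± 0.18 (adjusted p = 0.0427) in H/R relative to control, and the call was lost without control 1, at -0.33, and also without control 2, GA+H/R 1 or any single H/R library. The exonuclease gene ISG20 appeared only in a locus joined with AEN, at 60.1, 74.9 and 63.3 in GA+H/R, 75.5, 65.3 and 73.8 in H/R and 69.2, 50.8 and 44.9 in control, and it was not called in any comparison.

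Other genes of the same pathways were counted in the same fit. Among NF-kB pathway components, 3 of 25 tested were higher and 4 lower in GA+H/R relative to H/R, against 18.7% and 15.2% of all loci, with a median of -0.15 (0 higher and 22 lower on the deposited scale). The adaptor genes MYD88 and TRADD rose by 0.51 ± 0.09 (adjusted p = 0.00366) and 0.58 ± 0.14 (adjusted p = 0.0125), where the deposited changes were -0.14 and -0.05, and IKBKB, the catalytic IkB kinase that marks IkB-alpha for destruction, fell by 1.11 ± 0.16 (adjusted p = 0.00115). IKBKB was at 22.1, 16.05 and 22.6 in GA+H/R against 52.4, 43.1 and 38.4 in H/R, without overlap. In H/R relative to control 10 of the 25 were higher and 10 lower, against 29.2% and 28.4% of all loci, with a median of 0.10 (0 and 23 on the deposited scale). NFKBIE, a further cytoplasmic IkB, rose by 1.33 ± 0.11 (adjusted p = 1.07e-05), with 0.06 on the deposited scale, and BIRC2, a ubiquitin ligase of the TNF receptor complex, fell by 0.91 ± 0.11 (adjusted p = 1.20e-04). GA+H/R relative to control gave 8 higher and 12 lower, against 33.7% and 35.5% of all loci, with a median of -0.08 (0 and 25 on the deposited scale), and REL, another NF-kB subunit, fell by 1.23 ± 0.29 (adjusted p = 0.00406).

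The next list held cytokine and pattern receptors and the receptor antagonist gene IL1RN. In GA+H/R relative to H/R, 3 of 13 tested genes were higher and 5 lower, against 18.7% and 15.2% of all loci, with a median of -0.14. On the deposited scale 2 of 14 were higher and 8 lower. TNFRSF1A, the main TNF receptor, was at 64.5, 56.5 and 60.8 in GA+H/R against 98.7, 96.3 and 108 in H/R and fell by 0.73 ± 0.08 (adjusted p = 2.30e-04). ACKR3, a scavenging receptor for CXCL12, fell by 0.78 ± 0.15 (adjusted p = 0.00416), and IL17RA, the IL-17 receptor subunit, by 0.95 ± 0.14 (adjusted p = 0.00111). The myeloid growth factor receptors CSF2RA and CSF1R rose by 2.63 ± 0.19 (adjusted p = 3.11e-05) and 1.79 ± 0.19 (adjusted p = 2.30e-04), with 1.79 and 1.09 on the deposited scale. CSF1R is also on the macrophage marker list, and CSF2RA averaged 11.4 ± 1.69 in GA+H/R against 1.01 ± 0.375 in H/R (SD, n = 3). CSF2RA reached 1 rescaled FPKM in 3 GA+H/R, 1 H/R and 0 control libraries, so it passed the filter through GA+H/R and a difference was built into its test.

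In H/R relative to control 3 of the 13 genes on this list were higher and 5 lower, against 29.2% and 28.4% of all loci, with a median of -0.27 (0 and 11 of 14 on the deposited scale). IL6ST, the signal chain shared by IL-6 and LIF, was at 77.4, 77.7 and 74.3 in GA+H/R, 86.1, 92.9 and 92.1 in H/R and 201, 232 and 227 in control, with the groups well apart. It fell by 1.27 ± 0.07 (adjusted p = 8.76e-07) in H/R and by 1.51 ± 0.07 (adjusted p = 1.38e-07) in GA+H/R relative to control. LIFR, the LIF-binding chain, fell by 1.17 ± 0.15 (adjusted p = 1.62e-04) in H/R and by 1.34 ± 0.15 (adjusted p = 4.05e-05) in GA+H/R relative to control. The signalling interleukin-1 receptor IL1R1 fell by 0.92 ± 0.11 (adjusted p = 1.06e-04) in H/R relative to control. The receptor antagonist gene IL1RN rose by 2.36 ± 0.45 (adjusted p = 0.00130) in GA+H/R relative to control. On the deposited scale its change was 0.61 and was not called (limma adjusted p = 0.285). Control libraries of IL1RN ranged from 0.928 to 7.03 rescaled FPKM, against 15.7 to 15.9 in GA+H/R. GA+H/R relative to control gave 3 higher and 7 lower of the 13, against 33.7% and 35.5% of all loci, with a median of -0.64 (2 and 11 of 14 on the deposited scale).

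Of 16 other inflammatory mediators tested, 4 were higher and 1 lower in GA+H/R relative to H/R, against 18.7% and 15.2% of all loci. In H/R relative to control 8 were higher and 1 lower, against 29.2% and 28.4%, and in GA+H/R relative to control 12 were higher and 2 lower, against 33.7% and 35.5%. Their medians were 0.23, 0.32 and 0.50. On the deposited scale the counts of 14 tested turned to 1 higher and 9 lower, 0 and 9, and 2 and 11 in the same comparisons. S100A9, a calcium-binding alarmin of myeloid cells, averaged 125 ± 5.07 in GA+H/R, 57.2 ± 4.10 in H/R and 17.5 ± 4.96 in control (SD, n = 3), and rose by 2.80 ± 0.16 (adjusted p = 6.59e-07) in GA+H/R relative to control, with 0.73 on the deposited scale. Its transcript is short, and the short housekeeping list had a median of 1.42 there, and of -0.45 on the deposited scale. The part of transcript length in the S100A9 change was not tested. HMOX1, the heme-degrading enzyme of the oxidative stress response, rose by 1.39 ± 0.34 (adjusted p = 0.00701) in H/R relative to control, with -0.03 on the deposited scale. PTX3, a secreted pattern-recognition protein, went the other way and fell by 0.84 ± 0.08 (adjusted p = 1.12e-04) in GA+H/R relative to H/R and by 1.38 ± 0.08 (adjusted p = 5.98e-07) relative to control.

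Of 15 interferon pathway components tested, 2 were higher and 8 lower in H/R relative to control, against 29.2% and 28.4% of all loci, with a median of -0.41 (0 and 15 of 16 on the deposited scale). IFNAR1, a chain of the type I interferon receptor, was at 35.8, 34.1 and 32.1 in GA+H/R, 47.3, 48.6 and 49.8 in H/R and 73.9, 71.7 and 79.0 in control, with no overlap. It fell by 0.50 ± 0.07 (adjusted p = 9.50e-04) in GA+H/R relative to H/R and by 0.61 ± 0.07 (adjusted p = 9.41e-05) in H/R relative to control. TBK1, the kinase that activates IRF3, fell by 0.63 ± 0.20 (adjusted p = 0.0234) in H/R, and its relative IKBKE fell by 0.75 ± 0.14 (adjusted p = 0.00440) in GA+H/R relative to H/R. IRF5, a factor of Toll-like receptor signalling, rose by 1.23 ± 0.11 (adjusted p = 2.28e-05) in H/R relative to control, with -0.09 on the deposited scale. GA+H/R relative to H/R gave 0 higher and 2 lower, against 18.7% and 15.2% of all loci, with a median of 0.05 (0 and 14 on the deposited scale). GA+H/R relative to control gave 2 higher and 9 lower, against 33.7% and 35.5%, with a median of -0.41 (0 and 16).

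Of 19 other interferon-stimulated genes tested, 1 was higher and 0 were lower in GA+H/R relative to H/R, 3 were higher and 4 lower in H/R relative to control, and 2 were higher and 7 lower in GA+H/R relative to control. All loci gave 18.7% and 15.2%, 29.2% and 28.4%, and 33.7% and 35.5% in the same order. The medians were -0.08, 0.01 and -0.17, and on the deposited scale 0 of 18 were higher and 15, 18 and 18 lower. SP100, a nuclear body protein, was the gene called in GA+H/R relative to H/R and rose by 0.36 ± 0.09 (adjusted p = 0.0116), with -0.28 on the deposited scale. B2M, the light chain of MHC class I, fell by 0.85 ± 0.11 (adjusted p = 1.73e-04) in H/R, and LGALS3BP, a secreted glycoprotein, fell by 1.25 ± 0.28 (adjusted p = 0.00340) in GA+H/R, each relative to control.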

How the data were processed

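Total RNA of 9 libraries (GA+H/R, H/R and control, 3 each) was sequenced, per the labels. Per the file headers, the authors deposited FPKM per locus, and a p-value and q-value of a single test across the 3 groups. The aligner, the counter, strand handling and the treatment of near-identical copies are not given in the sources used here, so values of gene families (MX, IFIT, chemokines) and of overlapping genes are uncertain. The low values showed no steps of whole reads, so depth is unknown, no counting interval is given, and precision rests on the spread between libraries, where the coefficient of variation had a median of 9.82% in GA+H/R, 7.27% in H/R and 10.3% in control. The labels do not state separate animals or cultures, so p-values measure the spread between these libraries, which may be technical. The processing notes name mouse builds for rabbit transcripts, so no coordinates are given.

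Libraries were rescaled as the report states, loci with at least 1 rescaled FPKM in at least 3 libraries were kept (10956 of 19511), 1 was added, and the log2 values of all 9 libraries entered limma 3.58.1 (R 4.3.3), with group means as the model and eBayes run with trend and robust on. The pseudocount understates changes of low genes. The two-sided p-values had Benjamini-Hochberg adjustment across every tested locus. The pipeline was tested on simulated data. The genes and all 14 further lists were chosen with earlier results of these data known. All tested genes of the set are named. From the further lists, at most 3 called higher and 3 called lower per comparison could be named, those with the largest change, groups that did not overlap and a mean of at least 1 in the higher group. The 19 alternatives covered scaling, pseudocount, filter, model and each library left out.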

Additional observations from a re-analysis of the deposited data

How the results depend on the processing

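Depth is unknown, so low genes such as IL1B and IFIH1 carry an error that cannot be set apart from the spread between libraries. The scale of the libraries had the widest effect. On the deposited scale 9922 loci were called in H/R minus control and 7255 in GA+H/R minus H/R. Of all tested genes of the set 20 were called in GA+H/R minus H/R, of the inflammatory ones 13, and of the pathway lists 71. Interferon genes called there were 7 in GA+H/R minus H/R, 8 in H/R minus control and 9 in GA+H/R minus control. Signs turned on that scale in GA+H/R minus H/R for IL1A (-0.41), NFKB2 (-0.55), IRF1 (-0.46), IRF3 (-0.42), IRF7 (-0.22), MX1 (-0.60) and IFIT5 (-0.40). In H/R minus control they turned for IL1A (-0.37), IL6 (-0.50), CXCL8 (-0.53), CCL2 (-0.43), NFKBIA (-0.67), LIF (-0.57), CSF3 (-0.70), NFKB2 (-0.70), RELB (-0.68), STAT2 (-1.18), IRF1 (-0.78), IRF3 (-0.27), IRF7 (-0.12), IRF9 (-0.89), MX1 (-0.87) and IFIH1 (-0.76). In GA+H/R minus control they turned for IL1A (-0.78), CXCL8 (-0.28), NFKBIA (-1.42), CSF3 (-1.49), NFKB2 (-1.25), RELB (-1.45), IRF1 (-1.23), IRF3 (-0.69), IRF7 (-0.34), IRF9 (-1.63) and MX1 (-1.46). The median shift of all loci given in the report is part of each of these values by construction. With GA+H/R and H/R fitted alone, 36 pathway genes were called in place of 23. Leaving out 1 library at a time gave 2 to 8 inflammatory, 0 to 1 interferon, 2 to 9 of all tested genes and 22 to 36 pathway genes in GA+H/R minus H/R, and 3 to 5 interferon genes in H/R minus control. The cause was not tested. CCL2 has no value where a GA+H/R library is left out, since it then misses the filter. Over single genes, calls were unchanged in 442 fits of GA+H/R minus H/R, 423 of H/R minus control and 451 of GA+H/R minus control. Among these, a sign could turn only where neither the main fit nor the alternative was called. A call was lost in 24, 38 and 12 fits and gained in 16, 10 and 13. The sign turned, with a call in the main fit or the alternative, in 4, 15 and 11. Deviations of same-numbered libraries correlated at -0.0177 to 0.0261, so no pairing by replicate number was seen. With 3 libraries per group, this cannot tell whether same-numbered libraries share an animal or culture. With the replicate number as a block, 3385 loci were called in GA+H/R minus H/R, 6142 in H/R minus control and 7441 in GA+H/R minus control, and inflammatory calls were 7, 13 and 13 and interferon calls 0, 5 and 5.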
